A study of Rattus norvegicus with 8 samples.

Results

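Fatty acid oxidation is described here through 10 genes in injured and sham-operated rat spinal cord. The genes were chosen by name from the pathway, with earlier results of these data known. They were Cpt1a, Cpt2, Acadm, Acadl, Acadvl, Hadha, Eci1, Ucp2, Ppara and Ppargc1a. Each had 1 probe set to which the platform annotation gave that symbol alone, so 10 of 10 were measured, among 18166 genes in all. Messenger RNA was measured on 8 Affymetrix Rat Gene 2.0 ST arrays, 4 from male Long Evans rats whose cord had been injured at thoracic level (SCI) and 4 from rats of the same strain and sex given a sham laminectomy (sham). The rats are labelled as weighing 400 g and as approximately 175 days of age, and the method and severity of the injury are not stated in the labels. Rats of both groups ate chow with 17% fat, recovered for 4 weeks after surgery, and were then switched to a palatable diet with 40% fat, so no comparison here concerns the diet. The labels mention 8 weeks in a way that can mean the whole study or the diet alone. One label places the tissue at thoracic segments 10 to 11 and another at 11 to 12 and neither says how far that was from the lesion. The labels speak of 10 rats, and 8 arrays were analysed here. Nothing in the labels ties an array to a numbered animal, so the p-values measure the spread between these arrays, which may be partly technical. The first principal component over all genes (45.6% of the variance) parted SCI from sham. The second (11.2%) set SCI 3, sham 1 and sham 2, at -17.18 to -12.62, apart from the other arrays, at 4.53 to 14.79, so results that change without these 3 arrays are given both ways.

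Mitochondria burn fatty acids by beta oxidation. Long-chain acyl groups are handed from coenzyme A to carnitine by CPT1 at the outer membrane, carried inwards, and handed back by CPT2. Acyl-CoA dehydrogenases for very long, long and medium chains then open each round, the trifunctional protein carries out the following steps, and an isomerase moves double bonds that the pathway cannot otherwise use. The nuclear receptor PPAR-alpha and the coactivator PGC-1-alpha switch these genes on in liver, heart and muscle. In the nervous system, astrocytes are known for most of the fatty acid oxidation, and the uncoupling protein UCP2 of the inner mitochondrial membrane is known from microglia and macrophages as well as some neurons.

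In injured cord Ucp2 was 2.01-fold higher than in sham cord, and of the 7 enzymes of beta oxidation only the isomerase Eci1 passed the test, 1.29-fold higher. The other 6 enzymes had differences of -0.01 to 0.16 on the log2 scale. The regulators Ppara and Ppargc1a had -0.14 and -0.32 and did not pass. A gene was called changed at a Benjamini-Hochberg adjusted p under 0.05 in a limma model of all 18166 genes. By that rule 2 of the 10 genes were higher in SCI and 0 lower, against 7.1% of all genes higher and 7.06% lower, or 14.2% in either direction. The SCI and sham arrays did not overlap for the same 2 of 10 genes, Ucp2 and Eci1, against 20.3% of all genes. At an unadjusted p under 0.05 the 10 genes included 3, Ppargc1a being the third, against 4850 of all 18166 genes. The median difference of the 10 genes was 0.08, against -0.01 over all genes tested. With 10 genes, 2 calls are a share close to that of all genes, so the count sets these genes apart from no others. In whole tissue, a different number of cells of a type and a different amount of RNA per cell cannot be told apart.

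**Figure D1:**
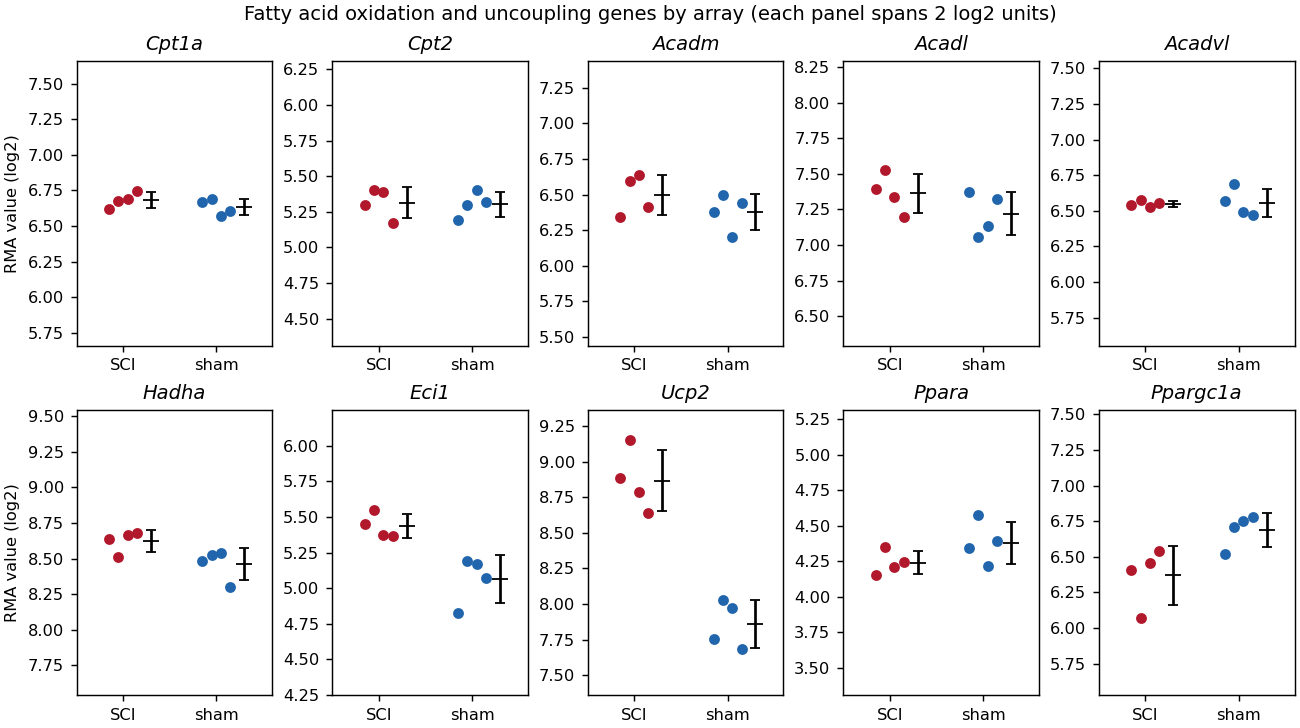
RMA values (log2) of the 10 genes on each array, SCI in red on the left of each panel and sham in blue on the right, with the mean and SD of 4 arrays in black. Each panel spans 2 log2 units. The groups lie apart for Ucp2 (8.64 to 9.15 in SCI, 7.68 to 8.03 in sham) and Eci1 (5.37 to 5.55 in SCI, 4.82 to 5.19 in sham), and overlap for the other 8 genes.

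RefSeq promoter windows of the GRCr8 assembly, from 250 bases before to 50 after the annotated start, were matched for 9 of the 10 genes. Those of Ucp2 and Eci1, the genes that passed the test, and of Ppargc1a, the gene with the lowest difference, are shown 5′ to 3′. Capitals mark the letters found of 6 motifs searched on both strands: the nuclear receptor core AGGTCA, the direct repeat of that core with 1 base between (the kind of element PPAR binds), the cAMP response element TGACGTCA, the GC box GGGCGG, the CCAAT box and the NRF1 core GCGCATGCG. The windows are chr1:164251123-164251422 on the plus strand for Ucp2, chr10:13961000-13961299 on the plus strand for Eci1 and chr14:63634058-63634357 on the plus strand for Ppargc1a.
Ucp2: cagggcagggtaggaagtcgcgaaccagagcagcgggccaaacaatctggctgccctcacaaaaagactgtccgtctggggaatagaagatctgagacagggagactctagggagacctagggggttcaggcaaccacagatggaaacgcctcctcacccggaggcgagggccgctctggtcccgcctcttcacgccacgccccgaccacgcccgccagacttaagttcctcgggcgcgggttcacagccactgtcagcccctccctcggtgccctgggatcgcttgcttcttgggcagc
Eci1: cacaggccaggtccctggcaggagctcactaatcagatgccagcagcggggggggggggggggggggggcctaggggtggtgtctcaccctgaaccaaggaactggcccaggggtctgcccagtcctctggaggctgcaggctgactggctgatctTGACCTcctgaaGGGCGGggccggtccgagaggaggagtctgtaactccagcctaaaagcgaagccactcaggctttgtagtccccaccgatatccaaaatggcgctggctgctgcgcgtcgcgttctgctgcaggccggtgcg
Ppargc1a: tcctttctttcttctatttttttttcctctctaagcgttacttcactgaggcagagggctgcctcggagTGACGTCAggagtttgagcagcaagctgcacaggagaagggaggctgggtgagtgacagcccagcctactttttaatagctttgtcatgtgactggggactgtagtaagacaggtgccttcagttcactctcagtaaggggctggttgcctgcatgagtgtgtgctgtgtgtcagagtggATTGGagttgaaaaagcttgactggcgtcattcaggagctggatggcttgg
The Ucp2 window held none of these letters and had 63.3% G and C, against a median of 52.3% over 27457 promoters, 1 for each gene. The Eci1 window held 1 receptor core and 1 GC box, which do not overlap, and its longest run of G was 22 bases. The Ppargc1a window held a cAMP response element, as did that of Acadm, and 1.91% of all promoters have one. It also held a CCAAT box, which 37.7% of promoters have. The receptor core was found in 2 of the 9 windows, those of Eci1 and Acadvl, against 15.7% of all promoters. The GC box was in 5 of 9 against 34.9%, and the CCAAT box in 2 of 9 against 37.7%. The NRF1 core was in the window of Ppara alone, where its letters read on both strands and the matches overlap, against 1.66% of all promoters. The repeated core was in 0 of 9 windows and in 0.0583% of all promoters. Matches are descriptions of letters and not of bound factors.

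Entry of fatty acids into mitochondria is the step controlled by Cpt1a, which encodes the liver-type enzyme of the outer membrane. Its RMA values were 6.62, 6.67, 6.69 and 6.75 in SCI, against 6.67, 6.69, 6.57 and 6.61 in sham (log2). The groups overlapped, and the highest and lowest arrays were SCI 4 and sham 3. The difference was 0.05 (SE 0.09, 95% interval -0.14 to 0.24, adjusted p = 0.78 by limma). Cpt2, the enzyme of the inner membrane that rebuilds acyl-CoA, had 5.30, 5.40, 5.39 and 5.17 in SCI, against 5.19, 5.30, 5.41 and 5.32 in sham. The groups overlapped, with the highest value in sham 3 and the lowest in SCI 4. The difference was 0.01 (SE 0.10, interval -0.20 to 0.22, adjusted p = 0.96). The changes of Cpt1a and Cpt2 differed by 0.04 (exact permutation p = 0.71, adjusted 0.77 over 15 pairs of genes compared).

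The acyl-CoA dehydrogenases take the first step of each round and differ in the chain length they accept. Acadvl, for very long chains, had 6.54, 6.58, 6.52 and 6.55 in SCI, against 6.57, 6.69, 6.49 and 6.47 in sham. The SCI arrays lay within the range of the sham arrays, with an SD of 0.02 in SCI and 0.10 in sham. The difference was -0.01 (SE 0.09, interval -0.20 to 0.19, adjusted p = 0.98 by limma). Acadl, for long chains, had 7.39, 7.52, 7.34 and 7.20 in SCI, against 7.37, 7.06, 7.13 and 7.32 in sham, a difference of 0.14 (SE 0.11, interval -0.10 to 0.38, adjusted p = 0.48). Its groups overlapped, the highest array being SCI 2 and the lowest sham 2. Acadm, the medium-chain enzyme whose loss causes the best known inherited defect of the pathway, had 6.34, 6.60, 6.64 and 6.41 in SCI, against 6.38, 6.49, 6.20 and 6.44 in sham. The difference was 0.12 (SE 0.11, interval -0.12 to 0.36, adjusted p = 0.55), and its groups overlapped as well. The upper ends of the 3 intervals correspond to 1.14-fold for Acadvl, 1.31-fold for Acadl and 1.28-fold for Acadm. Between the 3 dehydrogenases, the differences of their changes were -0.02 (Acadm minus Acadl), 0.13 (Acadm minus Acadvl) and 0.15 (Acadl minus Acadvl), with exact permutation p of 0.89, 0.23 and 0.26.

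The later steps were measured through Hadha and Eci1. Hadha encodes the alpha subunit of the mitochondrial trifunctional protein, with hydratase and long-chain dehydrogenase activity. Its values were 8.64, 8.51, 8.67 and 8.68 in SCI, against 8.48, 8.53, 8.54 and 8.30 in sham. Of the SCI arrays, 3 were above all 4 sham arrays and SCI 2 was not. The difference was 0.16 (SE 0.09, interval -0.05 to 0.37, adjusted p = 0.32 by limma). Hadhb, its neighbour in the genome, encodes the beta subunit with the thiolase activity and had 0.15 (SE 0.11, adjusted p = 0.43). Without SCI 3, sham 1 and sham 2 Hadhb was at -0.01.

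Eci1 encodes the enoyl-CoA delta isomerase, an auxiliary enzyme that shifts a double bond of unsaturated fatty acids so that oxidation can go on. Its values were 5.45, 5.55, 5.37 and 5.37 in SCI, against 4.82, 5.19, 5.17 and 5.07 in sham. The 4 SCI arrays were above the 4 sham arrays, with a gap of 0.18 between the lowest SCI and the highest sham array, and sham 1 was the lowest. Groups did not overlap, with SCI higher, in 9.36% of all genes. The difference was 0.37 (SE 0.11, interval 0.13 to 0.61, adjusted p = 0.042 by limma). The call was lost when any 1 array but sham 2 was left out (adjusted p of 0.055 to 0.12) and with each array centred on its median (0.065). It was also lost in a fit that left out SCI 3, sham 1 and sham 2 (0.17). With the number in the sample titles as a covariate it was lost as well (0.066), although the difference was 0.44. These numbers were 4, 6, 7 and 8 in SCI and 5, 9, 10 and 11 in sham, so the covariate is partly tied to the group. The changes of Hadha and Eci1 differed by -0.20 (exact permutation p = 0.14, adjusted 0.21), so a larger change of Eci1 than of Hadha was not shown.

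**Figure D2:**
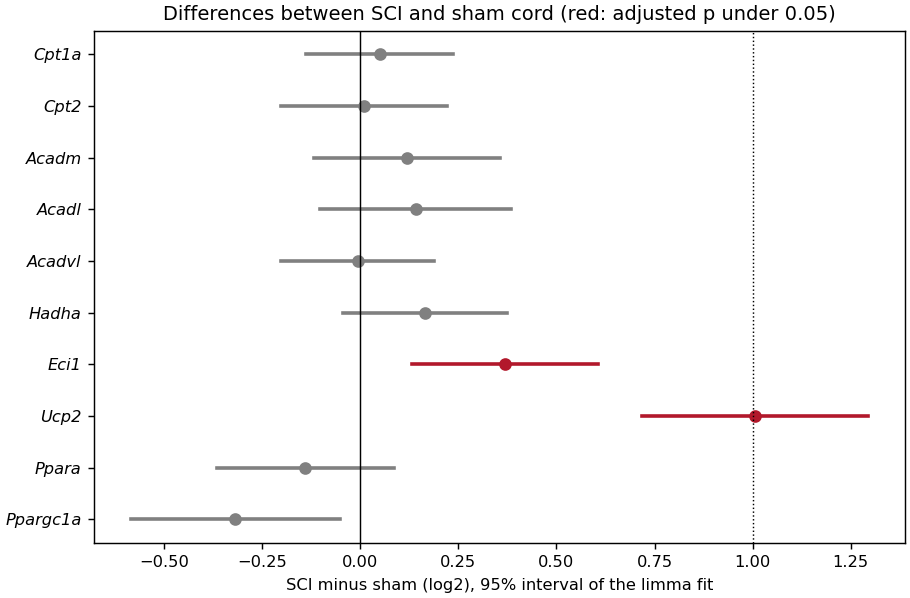
Difference between SCI and sham (log2) of each of the 10 genes, with its 95% interval from the limma fit over all genes. Red marks genes with an adjusted p under 0.05, and the dotted line is a 2-fold rise. The intervals of the 6 enzymes in grey reach no further than 0.38 upwards, and that of Ucp2 runs from 0.72 to 1.29.

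Ucp2 encodes a carrier of the inner mitochondrial membrane that is known to lower the membrane potential and the release of reactive oxygen in macrophages. Its values were 8.88, 9.15, 8.78 and 8.64 in SCI, against 7.75, 8.03, 7.97 and 7.68 in sham. The groups lay apart by 0.61, the gap between the lowest SCI array, SCI 4, and the highest sham array, sham 2. Ucp2 averaged 8.86 ± 0.21 in SCI and 7.86 ± 0.17 in sham (SD, n = 4 each). The difference was 1.01 (SE 0.13, interval 0.72 to 1.29, adjusted p = 6.9e-04 by limma), or 2.01-fold. It passed under each alternative tried, with an adjusted p of 0.024 without SCI 3, sham 1 and sham 2.

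Within each array, Ucp2 moved apart from each of the other 9 genes. The difference of its change from theirs was smallest for Eci1, at 0.64, and largest for Ppargc1a, at 1.32. For Cpt1a it was 0.96, for Cpt2 1.00, for Acadm 0.89, for Acadl 0.87, for Acadvl 1.01, for Hadha 0.84 and for Ppara 1.15. These are differences between changes and not between levels of different probe sets. For each of the 9 pairs the SCI and sham arrays did not overlap, and the exact two-sided permutation p was 0.029, the smallest that 70 assignments of 8 arrays allow. Adjusted over the 15 pairs compared, it was 0.048. With all 9 pairs at the smallest p, this adjusted value is set by their number among the 15 and adds no evidence. The 9 pairs share the values of Ucp2 and are not independent.

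Markers of phagocytes were higher in the same arrays. Of 10 macrophage and microglia markers 8 were higher in SCI and 0 lower, and their summed signal on the linear scale was 2727 to 3485 in SCI, against 1087 to 1378 in sham. Of 8 markers of lipid-laden phagocytes 7 were higher and 0 lower, with sums of 9039 to 10572 in SCI and 2272 to 2596 in sham. Within SCI, the arrays from highest to lowest Ucp2 were SCI 2, SCI 1, SCI 3 and SCI 4, the same order as for the sum of the lipid-laden phagocyte markers. The order of Eci1 in SCI was the same again, but its values in SCI 3 and SCI 4 were nearly tied (5.373 and 5.366). The macrophage and microglia sum had another order, SCI 2, SCI 3, SCI 1 and SCI 4. On the first principal component over all genes SCI 2 was also highest and SCI 4 lowest of the SCI arrays (30.2 and 14.2). These orders are thus not particular to phagocyte markers. In sham the orders differed, with sham 2 highest for Ucp2 and sham 3 highest for both phagocyte sums. The summed signal of 4 Schwann cell markers was also higher, at 1508 to 1985 in SCI and 965 to 1135 in sham. Its order was SCI 1, SCI 2, SCI 3 and SCI 4 in SCI and, as for Ucp2, sham 2, sham 3, sham 1 and sham 4. The part of phagocytes or Schwann cells in the differences of Ucp2 and Eci1 was not tested.

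The regulators showed values in the other direction that did not pass the test. Ppara, the nuclear receptor that fatty acids activate, had 4.16, 4.35, 4.21 and 4.25 in SCI, against 4.34, 4.57, 4.22 and 4.40 in sham, at a dim signal below the median of all genes of 4.74. The difference was -0.14 (SE 0.10, interval -0.37 to 0.09, adjusted p = 0.44 by limma), with overlapping groups. Ppargc1a, the coactivator PGC-1-alpha that drives mitochondrial biogenesis, had 6.41, 6.07, 6.46 and 6.54 in SCI, against 6.52, 6.71, 6.75 and 6.78 in sham. SCI 4 was above sham 1 by 0.03, and the other SCI arrays were below the 4 sham arrays. The difference was -0.32 (SE 0.12, interval -0.58 to -0.05, adjusted p = 0.11). With only the brighter genes tested, those above the median level, it was called lower (adjusted p = 0.042). The changes of Ppara and Ppargc1a differed by 0.18 (exact permutation p = 0.37, adjusted 0.43).

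The 10 genes varied little within a group, with SDs from 0.02 (Acadvl in SCI) to 0.21 (Ucp2 in SCI, with Ppargc1a in SCI next). To describe how alike the genes were over the 8 arrays, each was centred on its own mean and the root mean square difference was taken. Among pairs of the 10 genes it ran from 0.06, for Acadvl and Cpt1a, to 0.72, for Ppargc1a and Ucp2. Of all genes with a symbol, those most like Ucp2 were Nbl1, an antagonist of bone morphogenetic proteins (0.09), Zfp36, which promotes decay of cytokine messages (0.09), and Inpp5d, a lipid phosphatase of blood cells (0.09). Those most like Eci1 were Frmd4a, a scaffold of cell polarity (0.04), Shtn1, an axon guidance adaptor (0.06), and Hnrnpf, a splicing factor (0.06). The genes were picked for their likeness to a gene that differed between the groups, so their own differences (0.89 to 1.09 for the first 3, 0.30 to 0.39 for the others) are descriptions.

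**Figure D3:**
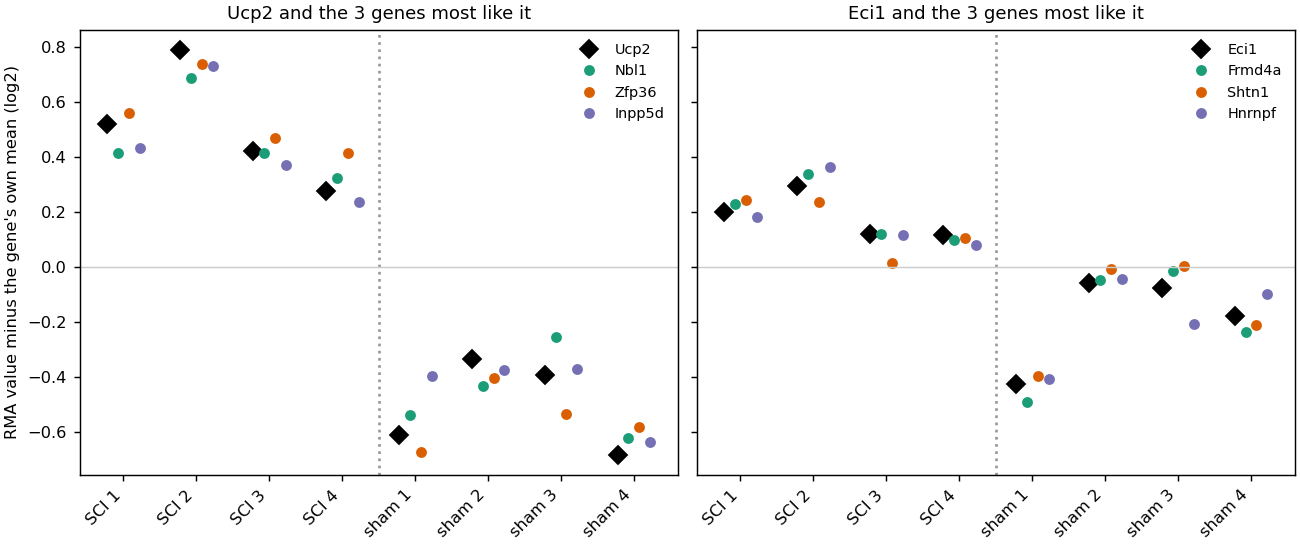
RMA values (log2) on each array minus the gene's own mean over 8 arrays, for Ucp2 (left) and Eci1 (right, black diamonds) and the 3 genes most like each (coloured circles). SCI arrays stand left of the dotted line and sham arrays right of it. Values of Ucp2 are highest in SCI 2 and lowest in sham 4, and those of Eci1 are highest in SCI 2 and lowest in sham 1.

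Other genes of the pathway were counted in 10 lists of 124 genes, of which 111 were tested. Each gene counted once, 11 were higher and 10 lower in SCI, 18.9% of those tested against 14.2% of all genes, with a median of -0.0023. The number of calls, 21, was 11 with the sample number as covariate, 11 without SCI 3, sham 1 and sham 2 and 12 without sham 4.

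Of 13 other enzymes of mitochondrial beta oxidation 0 passed (limma, adjusted p), 2 had an unadjusted p under 0.05, and the median was 0.01. Decr1, the dienoyl-CoA reductase that like Eci1 serves unsaturated fatty acids, had the smallest p (0.41, SE 0.15, adjusted p = 0.10), followed by the electron transfer flavoprotein subunit Etfa (0.26, SE 0.10, adjusted p = 0.13). Both passed when only the brighter genes were tested (0.039 and 0.049). The hydroxyacyl-CoA dehydrogenase Hadh had 0.22 and the thiolase Acaa2 0.26, at adjusted p of 0.20 and 0.21. Of 6 genes of the carnitine shuttle 1 was higher, the carnitine importer Slc22a5 (0.37, SE 0.09, adjusted p = 0.025), and the median was 0.05. Its call was lost with the covariate (0.092), without SCI 3, sham 1 and sham 2 (0.18) and without any 1 of SCI 2, SCI 3, SCI 4, sham 2 and sham 4 (0.050 to 0.067). The carrier Slc25a20, which brings acylcarnitines across the inner membrane, had -0.01 and the carnitine acetyltransferase Crat -0.12. Of 4 ketone body genes 0 passed, 2 had an unadjusted p under 0.05, and the median was -0.09, with 0.41 for the dehydrogenase Bdh2 (adjusted p = 0.080) and -0.22 for the thiolase Acat1 (0.18). Bdh2 passed without SCI 3 (adjusted p = 0.030), without sham 1 (0.0496), without SCI 3, sham 1 and sham 2 (0.035) and when only the brighter genes were tested (0.029).

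Of 16 genes of fatty acid uptake and activation tested 3 were higher and 5 lower, with a median of -0.16. Acss2, which makes acetyl-CoA from acetate for lipid synthesis, had 7.02, 6.71, 6.72 and 7.01 in SCI, against 7.87, 7.72, 7.70 and 8.07 in sham, and the groups lay well apart (-0.97, SE 0.12, adjusted p = 5.7e-04). The long-chain acyl-CoA synthetases Acsl1 (-0.58, SE 0.11) and Acsl3 (-0.55, SE 0.11) were lower, as were Acsl4 (-0.51) and Acsl6 (-0.37), both named after their values were seen. Higher genes were the fatty acid binding proteins Fabp7 of radial glia and astrocytes (0.77, SE 0.11) and Fabp4 of adipocytes and macrophages (0.67, SE 0.16), and the acyl-CoA synthetase Acsm5 (0.50, SE 0.12). The signal of Fabp4 was dim, at 3.29 in SCI and 2.62 in sham. Of the 8 calls, 3 were left with the covariate, 3 without SCI 3, sham 1 and sham 2, 5 without SCI 2 and 4 without sham 4. Fabp4 was at an adjusted p of 0.098, 0.058 and 0.053 with the covariate, without the 3 arrays and without sham 4. Acsm5 was at 0.11, 0.058 and 0.052 there, and at 0.059 without SCI 2. Fabp7 was at 0.057 without the 3 arrays and Acsl1 at 0.051 with the covariate. Acsl4 and Acsl6 also lost their calls under both settings, at up to 0.37, and Acsl6 with quantile normalization (0.071). Acsl4 was no longer called on leaving out SCI 1, SCI 2, sham 3 or sham 4 (0.058 to 0.077), nor Acsl6 on leaving out any single array other than SCI 4 (0.059 to 0.11).

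Of 12 peroxisomal genes 2 were lower and 0 higher, with a median of 0.03. Both encode half-transporters that import fatty acyl-CoA into peroxisomes, Abcd2 (-0.68, SE 0.15, adjusted p = 0.012) and Abcd3 (-0.48, SE 0.14, adjusted p = 0.042). With the covariate they were at 0.081 and 0.23, and Abcd2 was at 0.089 without SCI 3, sham 1 and sham 2. Abcd3 was also no longer called when SCI 1, SCI 2, SCI 4, sham 1, sham 3 or sham 4 was left out, at an adjusted p of 0.051 to 0.12.

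Of 6 other uncoupling proteins and carriers tested 0 were called higher and 2 lower, with a median of -0.21. Slc25a14, known as UCP5 and expressed in neurons, had 6.02, 5.64, 6.18 and 5.81 in SCI, against 6.20, 6.42, 6.52 and 6.62 in sham. The groups were only just apart, with SCI 3 the highest of its group and sham 1 the lowest of its own (-0.53, SE 0.14, adjusted p = 0.026). Slc25a4, the adenine nucleotide translocase of heart, muscle and brain, was lower by one probe set (-0.42, SE 0.10, adjusted p = 0.019) and had -0.05 by another, dimmer one, and the mean of both did not pass (0.14). With the covariate Slc25a14 and Slc25a4 were at 0.15 and 0.12, and without SCI 3, sham 1 and sham 2 Slc25a4 was at 0.079. Slc25a14 also lost its call without any 1 of SCI 2, SCI 4, sham 2, sham 3 and sham 4 (0.055 to 0.077), and Slc25a4 without any 1 of SCI 1, SCI 2, sham 3 and sham 4 (0.053 to 0.061). The neuronal Slc25a27, known as UCP4, had -0.22 (adjusted p = 0.15). Ucp3, which neighbours Ucp2 in the genome, had -0.06 and the brown fat protein Ucp1 0.01. All 8 neuronal markers tested were lower in the same arrays, with a summed signal of 6852 to 8213 in SCI, against 9812 to 11324 in sham, and their part in these 2 falls was not tested. Of these markers, Rbfox3 was at an adjusted p of 0.10 in the fit that left out SCI 3, sham 1 and sham 2, and at 0.058 with the covariate.

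**Figure D4:**
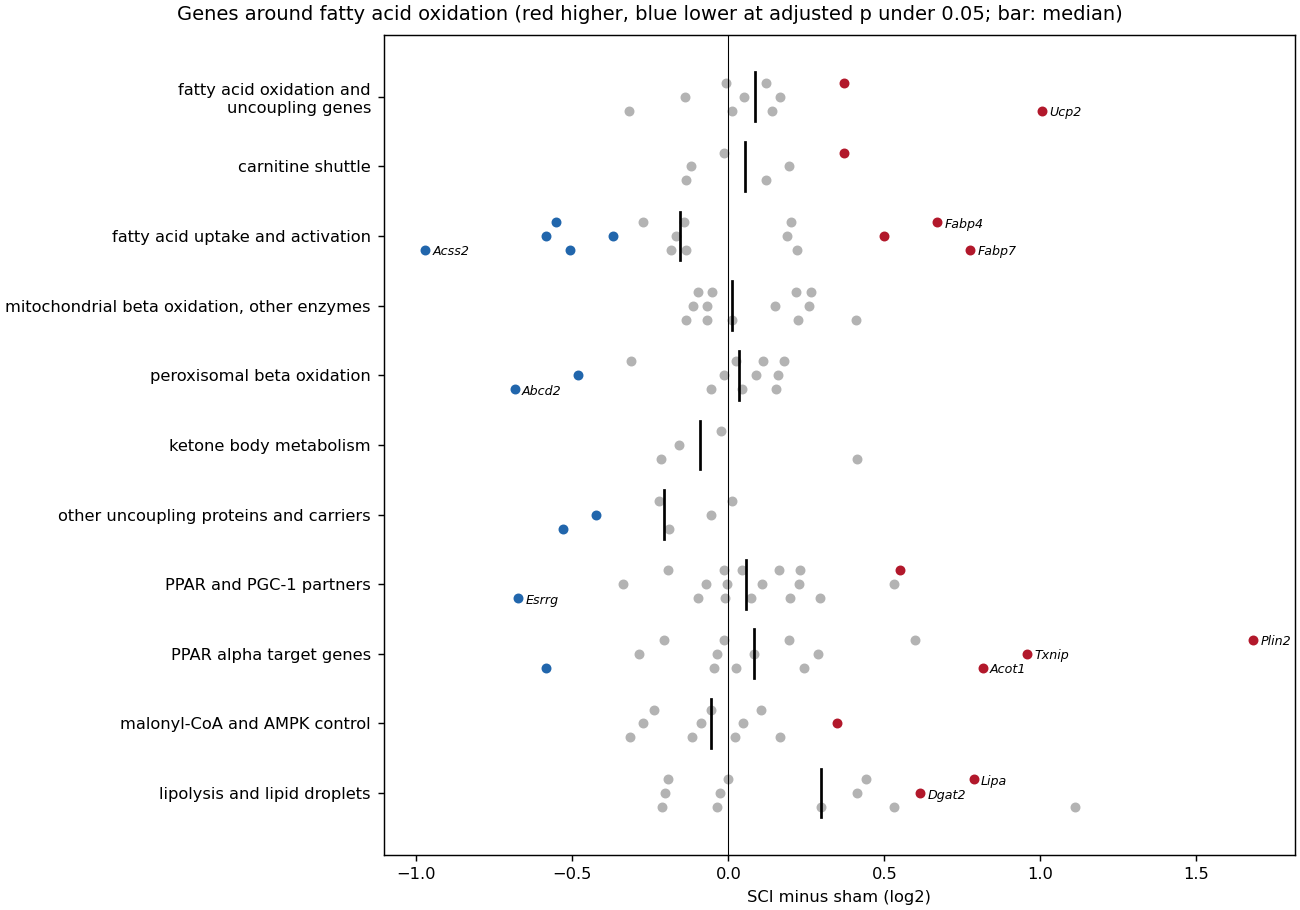
Difference between SCI and sham (log2) of the 10 genes (top) and of each tested gene in 10 pathway lists, 1 point for each gene, red where higher and blue where lower at an adjusted p under 0.05. Black bars are medians, from -0.21 for uncoupling proteins and carriers to 0.30 for lipolysis and lipid droplets. Plin2 is the highest point at 1.68 and Acss2 the lowest at -0.97.

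Among 18 partners of PPAR and PGC-1, 1 was higher and 1 lower, with a median of 0.06. When only the brighter genes were tested, or with a trended, robust variance, 2 were higher and 2 lower. Rxra, the retinoid receptor that pairs with PPAR on DNA, had 6.29, 6.40, 6.13 and 6.43 in SCI, against 5.73, 5.81, 5.79 and 5.71 in sham. The groups did not overlap (0.55, SE 0.10, adjusted p = 0.0039). Esrrg, an orphan receptor that works with PGC-1-alpha and is found in motor neurons, was lower (-0.67, SE 0.11, adjusted p = 0.0023, and 0.055 without SCI 3, sham 1 and sham 2). Ppargc1b, the related coactivator PGC-1-beta, had 4.93, 4.15, 4.30 and 4.53 in SCI, against 4.12, 3.70, 4.06 and 3.90 in sham. The 4 SCI arrays were above the 4 sham arrays, but the difference did not pass (0.53, SE 0.17, adjusted p = 0.058). It passed without SCI 2 (adjusted p = 0.039) and with a trended, robust variance (0.042). Ppard and Pparg had 0.23 and 0.16, at adjusted p of 0.31 and 0.44. Another, dimmer probe set of Ppard had -0.04.

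Of 15 genes listed as targets of PPAR-alpha 3 were higher and 1 lower, with a median of 0.08. Plin2, which coats lipid droplets and is abundant in foamy macrophages, had 8.75, 8.65, 8.61 and 8.44 in SCI, against 6.90, 6.85, 7.08 and 6.89 in sham. It was 3.21-fold higher (1.68, SE 0.10, adjusted p = 8.4e-06), the largest difference in the 10 lists. Txnip, a thioredoxin-binding protein that also responds to glucose, rose by 0.96 (SE 0.12), and the cytosolic thioesterase Acot1 rose by 0.82 (SE 0.14) at a dim signal of 2.90 in SCI and 2.08 in sham. Acot1 was at an adjusted p of 0.069 without SCI 3, sham 1 and sham 2. The lower one was Acsl1, also counted under activation. The kinase Pdk4 and the lipase inhibitor Angptl4, both induced by PPAR in other tissues, had 0.24 and -0.04, at adjusted p of 0.57 and 0.92.

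Lipid droplet genes included 2 higher and 0 lower among 13, with a median of 0.30, and 7 had an unadjusted p under 0.05, against 4850 of all 18166 genes. The number called was 4 without SCI 3 and 4 when only the brighter genes were tested. The higher genes were the lysosomal lipase Lipa (0.79, SE 0.11, adjusted p = 8.6e-04) and Dgat2, which makes triglyceride (0.61, SE 0.09, adjusted p = 0.0018). The largest difference in this list, 1.11, was that of another gene, which did not pass. Of 11 genes of malonyl-CoA and AMPK control 1 was higher and 0 lower, with a median of -0.06, and 1 was higher and 2 lower when only the brighter genes were tested or with a trended, robust variance. The higher gene was the kinase subunit Prkab1 (0.35, SE 0.09, adjusted p = 0.029), which lost its call with the covariate (0.068), without SCI 3, sham 1 and sham 2 (0.18) and on leaving out SCI 1, SCI 3, SCI 4, sham 1, sham 3 or sham 4 (0.059 to 0.074).

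The spinal cord markers Gfap, Mbp and Rbfox3 were bright on the arrays, at means of 11.3, 11.3 and 7.35. Array medians over all probe sets were 3.73 to 3.81. Of 7 oligodendrocyte markers 5 were lower and 0 higher, of 7 astrocyte markers 2 higher and 1 lower, of 5 endothelial markers 1 higher, of 4 Schwann cell markers 3 higher, and of 5 skeletal muscle markers 0 in either direction. Of 6 adipocyte markers 1 was higher, and the sum of that list was 59.1 to 72.4 in SCI and 43.2 to 59.3 in sham. The defining genes were Cd68 (4.17), Aif1 (0.98), Gfap (0.81), Mbp (-0.70, and -0.07 by another probe set), Rbfox3 (-0.61), Ckm (0.22) and Adipoq (-0.05), each as SCI minus sham on the log2 scale. Adipoq was dim in both groups, at 2.63 ± 0.26 in SCI and 2.68 ± 0.33 in sham (SD, n = 4 each).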

How the data were processed

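Cord RNA was hybridised to 4 SCI and 4 sham arrays, and the labels do not say which rat each array came from. The deposited values are log2 signals from Expression Console and RMA, per the submitters' processing notes. RMA subtracts background, equalises the distributions of the arrays and gives 1 value for each probe set, and it compresses differences of dim probe sets. No sources used here give its settings or versions. Array data have no read depth, and their number limits precision.

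Of 36685 probe sets 18511 had 1 symbol, and the brightest for each gene left 18166 genes. Another 575 had several symbols and 17599 none here. By gene ID 18394 matched RefSeq GRCr8, with 0 symbols changed. The difference of SCI from sham was fitted in limma 3.58.1 (R 4.3.3, lmFit, eBayes, no covariate), and every adjusted p of a gene is Benjamini-Hochberg over all genes in that model. Pairs of genes were compared by exact two-sided permutation. The scripts were tested on simulated data.

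The genes, the 10 pathway and 9 marker lists and the omission of SCI 3, sham 1 and sham 2 were chosen with earlier results of these data known, and no list was tested. Named were the 10 genes, all called genes of a list (the 6 with the smallest p if more, the 2 with the smallest p if none), fixed partners and markers, and the 3 genes most like each called one. Alternatives changed normalization, the filter, variance model, array weights, probe sets, a covariate and the arrays used. Some listed genes were not analysed here.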

Additional observations from a re-analysis of the deposited data

Results flagged for a closer look

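In 5 of 114 groups of 4 arrays, 1 array lay far from the other 3 by Dixon's criterion at 95%, which chance reaches in about 1 in 20 groups. None of them is a value of the 10 genes. Fabp7 had 10.05 in sham 3, where the other sham arrays had 9.74 to 9.78. Abcd2 had 6.52 in sham 3, where the others had 6.39 to 6.42. Etfa had 6.76 in SCI 1, below 6.93 to 6.94 in the other SCI arrays. Adipoq, a dim marker of adipocytes, had 3.17 in sham 1, against 2.45 to 2.57 in the other sham arrays. Inpp5d, one of the genes most like Ucp2, had 5.05 in sham 4, against 5.29 to 5.31 in the others.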

How the results depend on the processing

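Of the 10 genes, Ucp2 kept its call under each alternative (0.91 to 1.08 with 1 array left out), and Ucp2 differed from each of the other 9 in each one where pairs were compared. With 1 array left out, the exact permutation test gave each of these pairs the same adjusted p of 0.048, set by the number of pairs. Genes called numbered 1 under median centring, 1 with the covariate, 1 without SCI 3, sham 1 and sham 2, and 1 to 2 with 1 array left out. When only the brighter genes were tested they numbered 3, 2 higher and 1 lower, the lower one being Ppargc1a. Of all genes, 1356 were called with the covariate (813 higher, 543 lower), 847 without the 3 arrays (563 higher, 284 lower), 3181 among the brighter genes alone and 1703 to 2540 with 1 array left out. Calls in the pathway lists numbered 11, 11 and 12 to 21 under the covariate, the 3 arrays and 1 array left out. Of 24 other called genes, named from the pathway lists or as markers, 10 lost the call with the covariate (adjusted p of 0.051 to 0.23). Without the 3 arrays 10 lost it (0.055 to 0.18). Not among the 24 were Acsl4, Acsl6, Dlg4 and the genes most like Ucp2 and Eci1. Acsl4 and Acsl6 lost their calls under both settings as well. Both settings leave fewer residual degrees of freedom. The sample numbers also differ between the groups, at 4, 6, 7 and 8 in SCI and 5, 9, 10 and 11 in sham. The cause of the lost calls was not tested.

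Small differences changed sign. Cpt2 was at -0.029 with median centring, -0.0065 with quantile normalization and -0.074 without the 3 arrays. Acadvl was at 0.019 with quantile normalization, 0.0078 with array weights and 0.075 without the 3 arrays. Without those arrays Hadhb was at -0.0067, Slc25a20 at 0.0028, Crat at 0.014, Angptl4 at 0.060 and Adipoq at 0.16. Angptl4 was at 0.013 with array weights, and Pdk4 at -0.12 with the covariate. With 1 array left out, Cpt2 ranged over -0.027 to 0.059, Acadvl over -0.034 to 0.038, Slc25a20 over -0.063 to 0.042, Angptl4 over -0.20 to 0.079 and Adipoq over -0.15 to 0.11. The change of Acadm minus that of Acadl ranged over -0.077 to 0.072, and Cpt1a minus Cpt2 over -0.031 to 0.087. No paired analysis was possible because the replicate numbers follow the order of the sample list and pair no animals.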

Other observations

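Neighbouring genes give a local comparison for the 10 genes. Of the 20 genes that lie next to them in the annotation, 18 were measured and 1 was called, against 14.2% of all genes. With so few neighbours, this count sets them apart from no other genes. The called gene was Dlg4, the postsynaptic scaffold PSD-95, which adjoins Acadvl (-0.41, adjusted p = 0.017 by limma) and was named after its value was seen. The neighbours of Ucp2, Ucp3 and the axonemal chaperone Dnajb13, had -0.06 and 0.14, and those of Eci1, the RNA-binding Rnps1 and the nuclease Dnase1l2, had -0.12 and -0.04.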
